A study of Homo sapiens with 12 samples.

Results

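ABC transporter genes were examined in the chromatin accessibility data of MIAPaCa2 cells. The members were the protein-coding genes of the GRCh38 RefSeq table whose symbol is ABC, a letter from A to G and a number, which gave 45 of 19974 protein-coding genes. Of these, 12 belonged to ABCA, 9 to ABCB, 11 to ABCC, 4 to ABCD, 1 to ABCE, 3 to ABCF and 5 to ABCG. Peaks were taken from each gene span with 5 kb on both sides, and peaks of all libraries that overlapped by at least 1 bp were merged into regions. This gave 397 of the 178040 regions of the series, with 1 to 35 regions per gene (median 6).

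Accessibility was read by ATAC-seq, which cuts and tags open DNA with a transposase, on nuclei of MIAPaCa2, a human cell line from a pancreatic ductal adenocarcinoma. The parental line and cells that had survived weeks of culture in oxamate, an inhibitor of lactate dehydrogenase A (LDHA), were each profiled untreated and treated with the inhibitor, with 3 libraries in each of 4 groups. All groups share the cell line and medium, and the resistant cells derive from surviving populations of 1 line, so a resistant group stands for that selection only. The labels do not say whether libraries came from separate cultures, and p-values then measure only the spread between these libraries. The lists held 46401 to 63259 peaks, of which 0.213% to 0.248% lay in the member spans, and read depth is not given in them. The smallest peak width was 67 to 87 bp in the 6 parental and 94 to 124 bp in the 6 resistant lists. This lower limit on width and phenotype cannot be told apart, and fragment length is not given in the lists. Of the markers of the line, KRT8, KRT18, VIM and ZEB1 had a peak at a gene end in 12 of 12 libraries, KRT19 in 10, EPCAM in 1 and CDH1 in 0. The leukocyte marker PTPRC and the endothelial marker PECAM1 had none, and COL1A1, listed as a fibroblast marker, had one in 12 of 12.

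ABC proteins bind and hydrolyse ATP through a conserved pair of nucleotide-binding domains, and most couple this to moving a substrate across a membrane. ABCA and ABCG members are known mainly for lipid and sterol transport, ABCB and ABCC members include the drug efflux pumps and the sulfonylurea receptors, and ABCD members serve peroxisomes and lysosomes. ABCE and ABCF proteins lack transmembrane domains and act at the ribosome. Open chromatin at a start site is common at active and poised genes alike, so a peak gives accessibility and not expression.

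A start site was known for 35 of the 45 members from the RefSeq promoter table, which gives 1 start per gene. For the other 10, which include ABCA4, ABCA8, ABCB4, ABCB5, ABCC1, ABCC3, ABCC8 and ABCG1, both coordinate ends of the span were used. A start-site peak means a peak within 1 kb of that position. Start sites were uniformly open or closed for most members: 19 of 35 had such a peak in 12 of 12 libraries, 5 in 1 to 11, and 11 in none. The shares of 54.3%, 14.3% and 31.4% lay close to the 56.5%, 15.1% and 28.5% of the 15812 protein-coding genes with a start site. By library, 19 to 23 of the 35 members carried a start-site peak (54.3% to 65.7%), against 59.0% to 64.5% of all protein-coding genes with a start site.

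The promoter bases before the start are shown for ABCF2, ABCA7, ABCD2 and ABCB11. ABCF2 had the highest median start-site fold of the family. The ABCA7 start-site region was called lower in treated resistant than in treated parental cells, a call that did not hold under every alternative below. The ABCD2 start-site peak was called in 1 phenotype only, and ABCB11 had none in any library. The sequences are RefSeq, GRCh38.p14, 5′ to 3′ on the strand of the gene, each 250 bases that end just before the start, with CG pairs in capitals. ABCF2 lies at chr7:151227206-151227455 (minus strand, 26 CG pairs), ABCA7 at chr19:1039857-1040106 (plus strand, 25), ABCD2 at chr12:39619804-39620053 (minus strand, 7) and ABCB11 at chr2:169031325-169031574 (minus strand, 2).
ABCF2: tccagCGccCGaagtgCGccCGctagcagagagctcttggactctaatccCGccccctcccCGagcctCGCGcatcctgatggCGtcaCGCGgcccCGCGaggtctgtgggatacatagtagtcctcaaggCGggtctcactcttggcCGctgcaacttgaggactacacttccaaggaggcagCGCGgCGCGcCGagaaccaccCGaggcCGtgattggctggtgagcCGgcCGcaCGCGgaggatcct
ABCA7: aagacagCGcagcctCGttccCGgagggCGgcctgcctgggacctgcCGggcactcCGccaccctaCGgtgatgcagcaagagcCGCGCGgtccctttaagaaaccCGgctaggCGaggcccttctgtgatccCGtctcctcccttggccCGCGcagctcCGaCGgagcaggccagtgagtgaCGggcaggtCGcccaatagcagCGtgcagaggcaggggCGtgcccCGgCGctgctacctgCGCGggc
ABCD2: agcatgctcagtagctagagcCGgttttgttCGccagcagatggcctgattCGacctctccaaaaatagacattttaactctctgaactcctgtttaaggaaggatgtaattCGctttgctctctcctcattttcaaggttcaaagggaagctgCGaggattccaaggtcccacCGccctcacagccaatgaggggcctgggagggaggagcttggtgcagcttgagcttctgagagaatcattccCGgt
ABCB11: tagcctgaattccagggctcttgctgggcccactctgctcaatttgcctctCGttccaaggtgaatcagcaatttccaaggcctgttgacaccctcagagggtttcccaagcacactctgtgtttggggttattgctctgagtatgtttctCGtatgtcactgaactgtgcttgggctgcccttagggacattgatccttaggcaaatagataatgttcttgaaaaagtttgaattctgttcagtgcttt

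**Figure D1:**
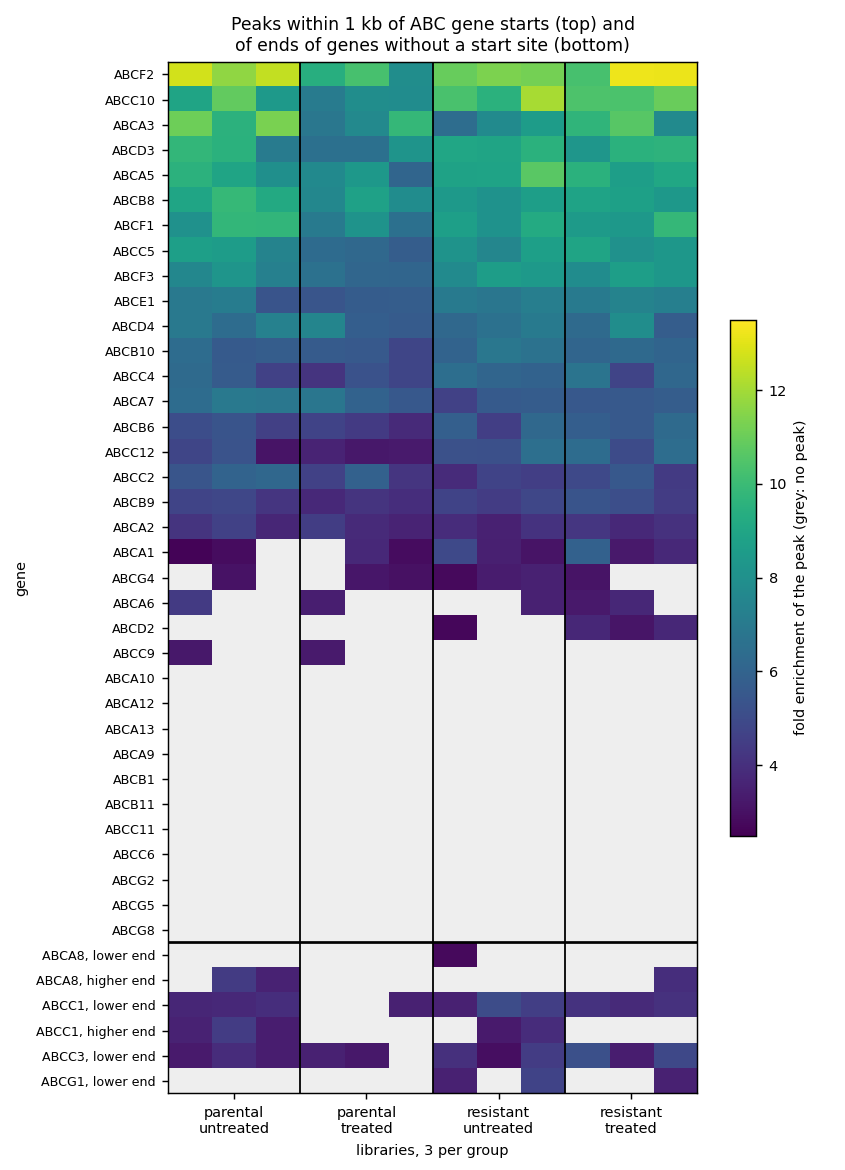
Deposited fold enrichment of the strongest peak within 1 kb of the start site (35 genes, upper block) or of a coordinate end with a peak in any library (4 genes without a start site, lower block), by library; columns are the 12 libraries in groups of 3 and grey means no peak. 19 genes are filled in every library, 11 are grey in every library, and ABCD2 is filled in resistant libraries only.

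ABCF2, a soluble ATPase of the ABCF group that acts at the ribosome, had the highest median start-site fold of the family, 11.3 over the local background. Its fold was 12.7, 11.7 and 12.5 in untreated parental, 9.41, 10.3 and 7.89 in treated parental, 11.0, 11.3 and 11.2 in untreated resistant, and 10.3, 13.2 and 13.2 in treated resistant libraries. The treated parental libraries were the lowest and did not overlap with untreated parental libraries, and the median fold of all peaks was 3.52 to 4.10 in their lists, against 3.90 to 4.81 in the other 9. After quantile normalisation the difference in parental cells was -0.20 on the log2 scale (SE 0.128, limma adjusted p = 0.509). The region also holds the start of the readthrough gene ABCF2-H2BK1. The other ribosome-associated members, ABCE1, ABCF1 and ABCF3, were likewise called in 12 of 12, with median folds of 6.99, 8.43 and 7.81, and the ABCE1 region also covers the start of ANAPC10.

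ABCC10 and ABCA3 followed ABCF2. ABCC10, a multidrug resistance protein, had folds of 8.93, 10.9 and 8.43 in untreated parental, 7.06, 7.91 and 7.84 in treated parental, 10.4, 9.53 and 12.1 in untreated resistant, and 10.4, 10.4 and 11.0 in treated resistant libraries (median 9.94). ABCA3, which loads surfactant lipid into lamellar bodies, had folds of 11.1, 9.58 and 11.3 in untreated parental, 6.86, 7.68 and 9.83 in treated parental, 6.41, 7.78 and 8.58 in untreated resistant, and 9.71, 10.7 and 7.77 in treated resistant libraries (median 9.08). ABCA3 was lower in every untreated resistant than in every untreated parental library, but the normalised difference of -0.51 (SE 0.172) had a limma adjusted p of 0.247. Its neighbours in the order, ABCD3 (8.95) and ABCA5 (8.85), lay within the spread between its libraries.

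The weakest start-site peaks called in 12 of 12 were those of ABCA2, ABCB9 and ABCC2. ABCA2, a lysosomal lipid transporter, ranged from 3.50 to 4.63 (median 3.97), and ABCB9, a lysosomal peptide transporter, from 3.79 to 5.38 (median 4.58). These ranges overlapped, so the order of ABCA2 and ABCB9 does not hold beyond the spread between libraries. Fold and rank did not go together for every member: ABCA7, a phospholipid transporter, had a median fold of only 5.74 but stood among the top 2.09% to 5.34% of peaks by -log10 q in each list, whereas ABCA2 stood between 31.9% and 54.2%. The other members open in 12 of 12 were ABCB6, ABCB8 and ABCB10 of ABCB, ABCC4, ABCC5 and ABCC12 of ABCC, and ABCD3 and ABCD4 of the peroxisomal and lysosomal group.

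The CG content of promoters differed between open and closed members in the same direction as over all genes. Open and closed refer here to the 1 start per gene of the promoter table, and other starts were not scored. The closed class holds ABCB1 and ABCG2, whose most frequent regions lay 86.8 and 72.7 kb downstream of that start. Whether those regions are other starts was not tested. The ratio of observed to expected CG pairs in the window from 250 bases before to 50 after the start had a median of 0.863 in the 19 members with a peak in 12 of 12 and 0.198 in the 11 with none, against 0.863 and 0.307 over all protein-coding genes in those classes. The GC-box sequence GGGCGG, searched on both strands, was found in 14 of 19 open and 0 of 11 closed members, and in 58.5% of all promoters. TGACNNNGC, the core of the antioxidant response element, was found in 7 of 19 and 0 of 11, against 14.3% of all promoters. Of the 4 further motifs searched, CCAAT was found in 4 of 19 and 0 of 11 (36.3% of all promoters), TATAAA in 2 and 2 (9.64%), TGANTCA in 1 and 1 (5.76%) and CACGTG in 2 and 1 (8.87%). Over all 35 members GGGCGG was found in 51.4%, TGACNNNGC in 20% and CCAAT in 17.1%. Motif shares over all promoters were not split into open and closed, so the split among members has no background. A match is a string of letters and not a bound site. The CG-poor exceptions were ABCC2, with 1 CG pair and a ratio of 0.066, and ABCC12, with 5 and 0.228, whose peak lies 0.906 kb upstream of the start and outside the window. Conversely ABCC6, mutated in pseudoxanthoma elasticum, had 25 CG pairs (ratio 0.749) and no start-site peak. The gene table also lists its partial copies ABCC6P1 and ABCC6P2, and reads that did not map uniquely had been removed; what this did to the ABCC6 promoter was not tested.

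**Figure D2:**
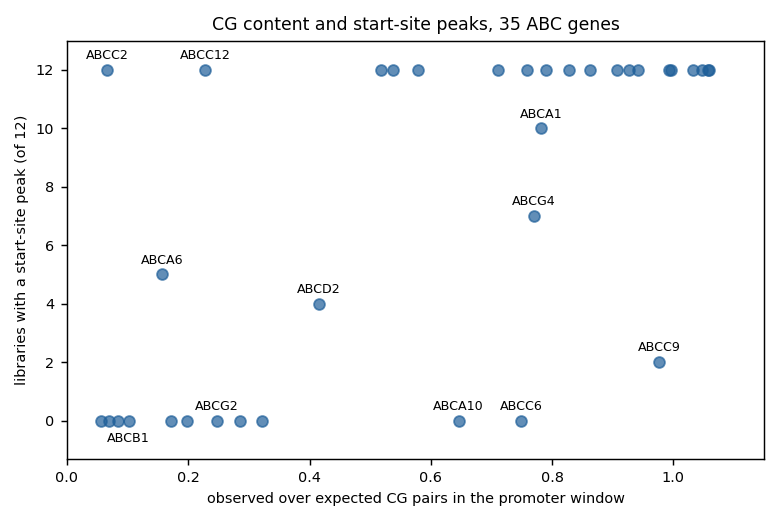
Ratio of observed to expected CG pairs in the promoter window (x) against the number of libraries with a start-site peak (y) for the 35 members with a start site, 1 point per gene. Most genes at 12 libraries lie above 0.5, with ABCC2 and ABCC12 as exceptions, and most at 0 libraries lie below 0.4, with ABCA10 and ABCC6 as exceptions.

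The drug efflux members were divided by presence of a peak at the 1 start per gene that the promoter table gives. ABCC2, ABCC4, ABCC5 and ABCC10 had a peak there in 12 of 12 libraries, whereas ABCB1 and ABCG2 had none in any. This holds for that start only and does not show that every start of ABCB1 or ABCG2 was closed. ABCB1 encodes P-glycoprotein and ABCG2 the breast cancer resistance protein, the efflux pumps most often named in drug resistance. ABCB1 nevertheless held 22 regions. One, at chr7:87626108-87626819 and 86.8 kb inside the gene, was called in 12 of 12, with folds of 5.32, 8.15 and 5.78 in untreated parental, 4.61, 4.25 and 5.94 in treated parental, 6.09, 6.45 and 6.07 in untreated resistant, and 5.93, 4.89 and 4.68 in treated resistant libraries. Untreated resistant libraries lay above both treated groups, the other pairs of groups overlapped, and the limma adjusted p was 0.279 or more in each comparison. The next region, chr7:87627842-87628527, lies within 1 kb of the start of RUNDC3B, a gene inside the ABCB1 span. It was called in 3 untreated parental, 2 treated parental, 0 untreated resistant and 1 treated resistant libraries. Other start sites inside the ABCB1 and ABCG2 spans were not placed, since the table gives 1 per gene.

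ABCG2 had no region in 12 of 12. Its most frequent region, chr4:88158408-88159496, lay 72.7 kb downstream of the start used here and within 1 kb of the start of LOC124900867. Whether it is another start of ABCG2 was not tested. It was called in 3, 1, 3 and 3 libraries of untreated parental, treated parental, untreated resistant and treated resistant cells. The called folds were 3.48, 4.35 and 3.37, then 4.38, then 4.66, 4.45 and 5.99, then 6.05, 4.13 and 4.51. The region was thus missing from treated parental libraries 1 and 3 only. Those libraries gave 98 and 129 peaks in the member spans, against 112 to 144 in the other 10.

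**Figure D3:**
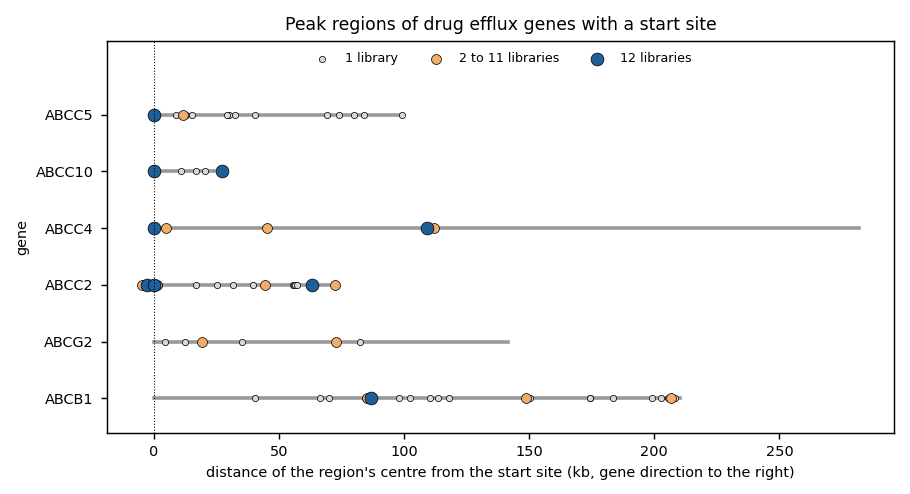
Regions of the 6 drug efflux members with a start site by distance of their centre from the start (kb); grey lines are gene spans, and dots are small for 1 library, medium for 2 to 11 and large for 12. ABCC2, ABCC4, ABCC5 and ABCC10 have a large dot at 0, ABCB1 has its only large dot 86.8 kb inside the gene, and ABCG2 has none.

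ABCC5, which exports cyclic nucleotides, had folds of 8.71, 8.58 and 7.41 in untreated parental, 6.35, 6.21 and 5.75 in treated parental, 8.15, 7.54 and 8.71 in untreated resistant, and 8.94, 8.05 and 8.33 in treated resistant libraries. The 3 treated parental libraries lay below the other 9. The same held for raw folds at other start sites, among them those of ABCB9, ABCC10 and ABCF3, and its share over all regions was not counted. After quantile normalisation, treated resistant exceeded treated parental cells by 0.14 (log2, SE 0.0996, limma adjusted p = 0.371). ABCC4, another exporter of cyclic nucleotides, had folds of 6.31, 5.65 and 4.61, 4.14, 5.28 and 4.80, 6.49, 6.10 and 5.97, and 6.72, 4.74 and 6.15 in the same order of groups, and the groups overlapped except treated parental and untreated resistant. A further ABCC4 region 4.74 kb inside the gene was called in 3, 3, 1 and 1 libraries. When only peaks of at least 124 bp were kept, it was called in 1, 0, 1 and 0. ABCC2, which exports conjugates into bile, had folds of 5.41, 6.00 and 6.15, 4.63, 5.92 and 4.21, 3.85, 4.70 and 4.55, and 4.92, 5.51 and 4.39. Untreated resistant libraries all lay below untreated parental ones at ABCC2, by -0.41 after normalisation (SE 0.139), and the limma adjusted p of 0.247 missed the threshold.

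ABCC1 and ABCC3, exporters of conjugated and amphipathic anions, have no start site in the table. At the lower coordinate end of ABCC1 (chr16:15949095-15950908) a peak was called in 3, 1, 3 and 3 libraries of untreated parental, treated parental, untreated resistant and treated resistant cells, with folds of 3.52 to 5.04. The higher end (chr16:16143115-16143418) was called in 3, 0, 2 and 0, so in 5 of 6 untreated and 0 of 6 treated libraries. Within the body, chr16:16021856-16022540 was called in 12 of 12 at 7.76, 8.69 and 7.54, 6.74, 5.57 and 5.40, 7.29, 6.87 and 10.6, and 9.19, 7.99 and 11.4. Treated parental libraries were the lowest there and did not overlap with the other groups, but treated resistant exceeded treated parental cells by 0.37 after normalisation (SE 0.147), with a limma adjusted p of 0.104. ABCC3 was called at its lower end (chr17:50634721-50635273) in 3, 2, 3 and 3 libraries, and in 12 of 12 at 2 sites in its body.

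Of the members with a start-site peak in some libraries, ABCD2 was called in resistant libraries only. ABCD2, a peroxisomal transporter of very-long-chain fatty acids, was called at its start (chr12:39619581-39620049) in 1 untreated resistant library at a fold of 2.70 and in 3 treated resistant libraries at 3.74, 3.11 and 3.71, and in none of the 6 parental libraries. These were weak peaks, between 45.4% and 74.2% of their lists by -log10 q, and with 4 of 12 libraries the region fell outside the totals tested for presence. ABCA1, which exports cholesterol to apolipoprotein A-I, was called in 2, 2, 3 and 3 libraries, with folds of 2.62 and 2.86 in untreated parental, 3.75 and 2.89 in treated parental, 4.91, 3.46 and 3.06 in untreated resistant, and 5.92, 3.25 and 3.78 in treated resistant cells. ABCG4, a sterol transporter, was called in 1, 2, 3 and 1 libraries with folds of 2.76 to 3.52, ABCA6 in 1, 1, 1 and 2 with 3.25 to 4.36, and ABCC9, the sulfonylurea receptor of cardiac and vascular muscle, in 1, 1, 0 and 0 with 3.22 and 3.29. The 2 ABCC9 peaks did not overlap each other.

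Among the genes without a start site, ABCG1, which exports cholesterol to lipoproteins, was called at its lower end only in resistant libraries, in 2 untreated at 3.51 and 4.70 and 1 treated at 3.51. ABCA8 was called at its higher end in 3 libraries and at its lower end in 1. ABCA4, ABCB4, ABCB5 and ABCC8 had no peak at either end in any library. The 11 members with a start site and no peak there were ABCA9, ABCA10, ABCA12, ABCA13, ABCB1, ABCB11, ABCC6, ABCC11, ABCG2, ABCG5 and ABCG8, which include the bile salt export pump ABCB11 and the sterol transporters ABCG5 and ABCG8.

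Of all 397 member regions, 63 (15.9%) were called in 12 of 12 libraries and 242 (61.0%) in 1 library only, against 13.6% and 59.5% of all regions. Peak strength could be compared at the 63, which lay in 34 of the 45 genes. The remaining 334 regions, including all of those of 11 genes, were not tested this way. Log2 fold was quantile-normalised over the 24148 regions of the series called in 12 of 12, fitted with limma, and adjusted over all of them in each comparison. A pass through this filter needs a peak in every library, so a region that lost its peak in a group is not among the tested ones.

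No member region passed an adjusted p of 0.05 on oxamate treatment in parental or resistant cells. In parental cells 0 member regions were called by limma (2 higher and 2 lower at an unadjusted p below 0.05), against 0.0207% of all regions called higher and 0% lower. In resistant cells 0 were called (1 higher and 1 lower unadjusted), against 0% and 0% of all regions. Between untreated resistant and untreated parental cells 0 were called (2 higher and 4 lower unadjusted), against 0.058% higher and 0.0414% lower. The interaction of treatment and phenotype called 0 member regions (0 at an unadjusted p below 0.05), against 0% and 0%.

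Between treated resistant and treated parental cells, 2 member regions were higher and 5 were lower in the resistant ones, against 5.2% of all regions called higher and 7.55% called lower. The count of 7 of 63 is near that background and is no feature of the family. With median centring in place of quantile normalisation, 2 member regions were higher and 8 lower, against 4.11% and 11.7% of all regions. The median difference was 0.02 on the log2 scale for members and 0.01 for all regions. The 7 regions belonged to ABCC12, ABCG1, ABCA7, ABCA10 and ABCB9. The calls depended on which libraries entered, for members as for all regions. Without treated resistant replicate 1 no member call was left in either direction, against 0.969% of all regions higher and 1.69% lower. Without treated resistant replicate 3 there were 0 higher and 1 lower, against 1.13% and 1.81%. Without treated parental replicate 1 there were 1 higher and 0 lower, against 2.27% and 3.71%.

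ABCC12 was higher in treated resistant cells at its upstream region (chr16:48156655-48157144). Its deposited folds were 4.81, 5.33 and 3.08 in untreated parental, 3.59, 3.20 and 3.29 in treated parental, 5.24, 5.17 and 6.54 in untreated resistant, and 6.40, 5.00 and 6.45 in treated resistant libraries. The treated groups did not overlap, and untreated parental replicate 3 lay with the treated parental libraries. The normalised difference was 0.57 (log2, SE 0.161, limma adjusted p = 0.0327), beside 0.39 in untreated cells (adjusted p = 0.326). ABCG1 was higher at a region of its body (chr21:42234496-42235173), with folds of 7.18, 7.40 and 7.33, 3.57, 4.66 and 4.87, 9.12, 6.94 and 8.16, and 9.04, 6.68 and 8.00 in the same order of groups. There only treated parental libraries stood apart, below the other 9, and the difference was 0.56 (SE 0.160, limma adjusted p = 0.0340).

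ABCA7 was lower in treated resistant cells at 3 of its 5 tested regions. At the start site (chr19:1039623-1040266) the folds were 6.40, 6.95 and 6.86 in untreated parental, 6.80, 5.94 and 5.52 in treated parental, 4.64, 5.63 and 5.72 in untreated resistant, and 5.54, 5.58 and 5.75 in treated resistant libraries. Raw folds of the treated groups overlapped, and after normalisation they did not, with a difference of -0.46 (log2, SE 0.114, limma adjusted p = 0.0201). With -log10 q as the measure in place of fold, the difference was -0.08 (limma adjusted p = 0.822) and the call was lost. Regions 2.05 kb (chr19:1041820-1042487) and 5.29 kb (chr19:1045288-1045515) inside the gene differed by -0.44 each (limma adjusted p = 0.0396 and 0.0217), and by -log10 q they differed by -0.18 and -0.51 without passing the threshold (limma adjusted p = 0.665 and 0.212). The second peak near the start, chr19:1040725-1041382, gave -0.26 (adjusted p = 0.17) and a region near its distal end (chr19:1062785-1063490) gave 0.08 (adjusted p = 0.644). Of the 36 tested regions within 250 kb on either side of ABCA7, 22 had a negative and 14 a positive difference, and 3 were called lower and 1 higher. The start region also lies within 1 kb of an end of CNN2.

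ABCB9 and ABCA10 were each lower at 1 region of the body. The ABCB9 region (chr12:122946655-122947719) lies 19.3 kb inside the gene, with folds of 8.95, 9.26 and 7.81, 8.60, 7.86 and 6.47, 6.82, 7.68 and 7.57, and 5.47, 6.97 and 7.34 in the same order, a normalised difference of -0.53 (SE 0.131, limma adjusted p = 0.0195). The start site of ABCB9 differed by 0.02 (adjusted p = 0.921). The ABCA10 region (chr17:69175487-69176751) lies 68.7 kb inside a gene with no start-site peak, with folds of 7.42, 7.88 and 8.82, 7.06, 6.81 and 6.65, 6.94, 7.05 and 6.74, and 5.99, 6.75 and 5.80, a difference of -0.49 (SE 0.122, limma adjusted p = 0.0206). Raw folds of the treated groups overlapped by 1 library in both regions.

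**Figure D4:**
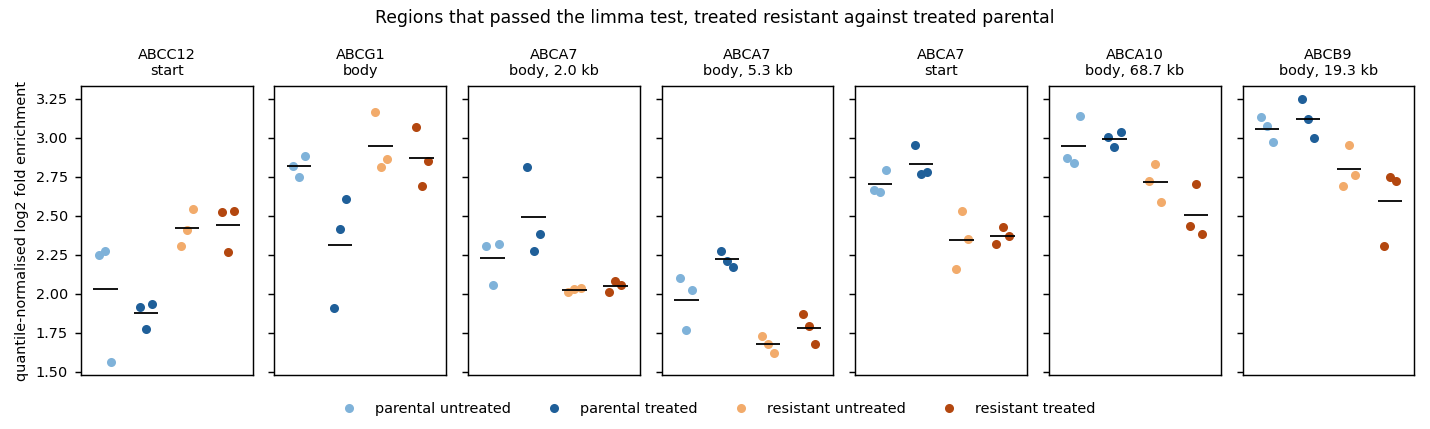
Quantile-normalised log2 fold enrichment (y) of the 7 member regions that passed the limma test between treated resistant and treated parental cells, 1 panel per region with its gene and, in the body, its distance from the start; points are libraries by group and lines are group means (n = 3). In ABCC12 and ABCG1 the treated resistant libraries lie above the treated parental ones, and in ABCA7, ABCA10 and ABCB9 the order is the opposite.

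Presence of a peak was then compared, since most member regions were not called in every library. Fisher's exact test (two-sided, 6 libraries in each arm) was run on regions called in 5 to 7 libraries, 9507 in all and 16 of members. Between resistant and parental libraries 0 of the 16 member regions had an unadjusted p below 0.05, against 8.71% of all regions tested called more often and 2.7% called less often in resistant libraries. Between treated and untreated libraries 0 were called more often, against 0.0526%, and 1 less often, against 1.34%. That region was the higher end of ABCC1, in 0 of 6 treated and 5 of 6 untreated libraries (exact p = 0.0152, adjusted p = 1). No region of the series passed an adjusted p of 0.05 in either test at the deposited threshold.

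Within pairs of groups, regions called in exactly 3 of the 6 libraries were counted, and those with all 3 in 1 group were called all-or-none. No test was made, since 3 against 3 libraries cannot reach the threshold. On treatment of parental cells, 5 of 15 such member regions were in 3 untreated and 0 treated libraries, against 26.2% of all such regions, and 0 of 15 the reverse, against 3.33%. They included regions in ABCA4, ABCB4 and ABCC3 and the higher end of ABCC1. On treatment of resistant cells, 0 of 12 were lost, against 4.9%, and 0 of 12 gained, against 4.24%. Between untreated cells, 1 of 10 was called in parental cells only, against 7.88%, the ABCB1 region at the RUNDC3B start, and 0 of 10 in resistant cells only, against 12.5%.

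Between treated cells, 9 of 14 such member regions were called in the 3 resistant and none of the 3 parental libraries, against 35.4% of all such regions, and 0 of 14 the reverse, against 10.9%. The 9 regions were the ABCD2 start site, 2 regions of ABCC3, and 1 each of ABCA4, ABCA10, ABCB4, ABCC8, ABCC12 and ABCF3. When only peaks of -log10 q 3 or above were kept, the counts were 6 of 9 against 70.2% of all such regions. Those 6 were mostly other regions: of the 9 named, only the ABCB4 region still had a peak in all 3 treated resistant libraries. ABCB4, which moves phosphatidylcholine into bile, showed the highest fold among these regions, at chr7:87416657-87416963, with folds of 3.42, 4.26 and 4.03 in untreated parental, 4.67 and 5.93 in 2 untreated resistant, and 5.51, 4.88 and 6.90 in treated resistant libraries. The photoreceptor transporter ABCA4 was called at chr1:94025986-94026515 in 3, 0, 3 and 3 libraries, with folds of 3.15 to 5.46. ABCC8, the sulfonylurea receptor of the beta cell, was called at chr11:17405588-17406055 in 0, 0, 1 and 3 libraries at 2.87 to 3.53. The regions of ABCA4 and ABCB4 and the body region of ABCC3 (chr17:50639023-50639607) stood in both the parental and the treated comparison, which share the treated parental libraries and are not independent. Of the 92 member regions called in 2 to 11 libraries, treated parental libraries held 21, 25 and 26, against 30 to 59 in the other 9, and of all 47961 such regions 10865 to 18243 against 17735 to 27019. The part of this shortage in the losses was not tested.

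**Figure D5:**
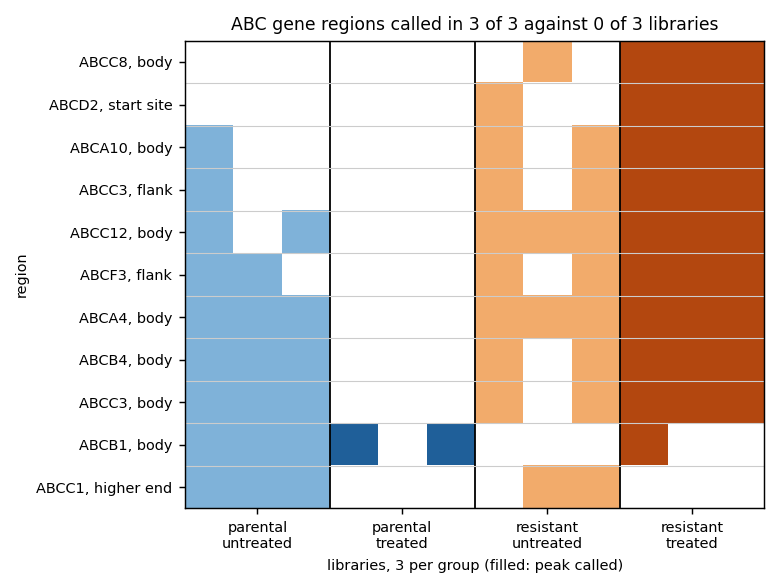
Presence (filled) or absence (white) of a peak in the 12 libraries, in groups of 3, for 11 all-or-none member regions; rows are regions with their gene and place. All rows except ABCB1 are empty in the treated parental libraries, and 9 rows are filled in the 3 treated resistant libraries.

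Among other genes of the family's regulation and function, 5 of 12 nuclear receptors and factors had a start-site peak in 12 of 12 libraries. The share over all protein-coding genes with a start site was 56.5%, and neither this list nor the partner list below was tested. The 5 included the sterol sensors NR1H2 and NR1H3 and the antioxidant factor NFE2L2. RXRA was called in 11, AHR in 10 and PPARG in 8, and the bile acid and xenobiotic receptors NR1H4, NR1I2 and NR1I3 had none, as did RXRG. Of 15 partner genes 12 were called in 12 of 12, among them the peptide transporters TAP1 and TAP2, the ABCD3 partners PEX3 and PEX19, and the ABCD4 partner LMBRD1. PELO, which acts with ABCE1 in ribosome rescue, was called in 10, the ABCC9 partner KCNJ8 in 1 and APOE in 0, all 3 at the start site, and APOE was called in 1 library when either end was counted. KCNJ11 and APOA1, for which no start site was known, were counted at either end, and both are among the 12 partners.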

How the data were processed

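ATAC-seq peak lists of 12 MIAPaCa2 libraries (4 groups of 3, from the sample titles) were used. Per the methods and the submitters' processing notes, the authors aligned reads to hg38 with Bowtie2 (2.1.0), dropped reads that were mitochondrial, duplicated or not uniquely placed, and ran MACS2 in BAMPE mode on each library by itself. The MACS2 version is not given in the sources used here. Each deposited list gives a peak's position, the authors' fold over local background, their -log10 values of p-value and q-value, and the authors' score, which was not used. The smallest -log10 q was 1.00. The lists hold no read counts, so no count test was run, depth is unknown, and the fold was compared instead.

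The members and lists were chosen with earlier results of these data known. Peaks on chromosomes 1 to 22 and X were kept (671854 of 677901). Gene spans came from the RefSeq gene table and start sites from the RefSeq promoter table, both GRCh38.p14, and positions are 1-based. Where a library had several peaks in a region, the highest fold was taken. Log2 folds were quantile-normalised and fitted with limma (3.58.1, R 4.3.3) to 4 group means over all 12 libraries, with Benjamini-Hochberg adjustment over 24148 regions per comparison. Fisher's exact tests used scipy (1.17.1) and were adjusted over all regions tested. The tests were checked on simulated data. Some member results are not reported here. Named were the 8 drug efflux members, members whose start site or, without one, either end had a peak in 1 to 11 libraries, members with a region that passed limma or was all-or-none, and the 3 highest and 3 lowest by start-site fold. Alternatives were median centring, -log10 q in place of fold, a -log10 q of 3 or more, the 45748 top-ranked peaks per list, a minimum width of 124 bp, totals of 3 to 9 libraries in the Fisher test, 500 bp and 2 kb around starts, a replicate block, and omission of each library in turn.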

Additional observations from a re-analysis of the deposited data

How the results depend on the processing

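The 19 members open at the start site in 12 of 12 libraries became 18 within 500 bp, 20 within 2 kb, 16 with -log10 q of at least 3 and 18 with equal list lengths. In the limma comparisons of treatment, of untreated cells and of the interaction, 0 member regions were called under each alternative run. The share over all regions was 0.364% or less in each direction. Between treated cells, the 2 higher and 5 lower regions became 2 and 8 with median centring, 0 and 1 with -log10 q as the measure and 2 and 3 with -log10 q of at least 3. With a replicate block they were 2 and 5, and no member call count changed. Same-numbered libraries' deviations correlated at 0.05 to 0.30 between resistant groups and at -0.18 to 0.05 in other pairs (of 18). Leaving out 1 library gave 0 to 3 higher and 0 to 5 lower, with 0 higher also without treated parental replicate 2, 1 higher and 3 lower without treated parental replicate 3. Each of the 7 regions kept its direction under every alternative that could test it and passed the threshold in 8 to 14 of 15 or 16; over these the adjusted p ran from 0.00611 (ABCB9) to 0.822 (ABCA7 start site, where the difference shrank from -0.46 to -0.08 with -log10 q as the measure).

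Member regions with an unadjusted Fisher's exact p below 0.05 by phenotype were 0 of 16 in the main setting. They became 1 of 13 with -log10 q of at least 3 and 1 of 16 with equal list lengths. With the minimum width they were 2 of 21. All of these were called more often in resistant libraries, against 19.6%, 11.5% and 12.9% of all regions tested. Without 1 library they were 0 to 6. Without untreated resistant replicate 2, which gave most, 5 of 27 were called more often, against 8.73%, and 1 less often, against 2.97%. None passed adjustment, though with -log10 q of at least 3, 279 regions of the series passed as higher and 28 as lower in resistant libraries. By treatment the 1 region became 0 of 13, 0 of 16 and 0 of 21 in the same order, and 1 to 2 without 1 library. The shares called less often over all regions tested were 0.882%, 1.01% and 1.19%, and 1.1% to 3.13% without 1 library. In parental cells the 5 all-or-none losses on treatment became 1 of 3, 3 of 8 and 3 of 12 in that order. Over all such regions the shares were 46.3%, 22.1% and 30.4%. Without 1 library losses were 7 to 9, against 26.3% to 48.3%. Without untreated parental replicate 3 they were 9 of 18, against 35.3%. Gains were 0 to 1, against 1.99% to 10% of all such regions. In resistant cells gains were 0 to 3 and losses 0 to 2 without 1 library. The shares over all such regions were 6.12% to 12.5% for gains and 6.83% to 13.2% for losses. Between untreated cells the count in resistant cells only went from 0 to 1 of 6, 0 of 9 and 1 of 8. Over all such regions the shares were 20.6%, 16.5% and 17.3%. Without 1 library it was 0 to 6, against 12.1% to 21.8%. Without untreated resistant replicate 2 it was 6 of 20, against 20.2%. The count in parental cells only was 1 and went to 1 of 6, 0 of 9 and 1 of 8, against 4.78%, 7.93% and 3.31%. Without 1 library it was 1 to 4, against 11.8% to 15.5%. With -log10 q of at least 3 the region counted was that of ABCC4 4.74 kb inside the gene, and the ABCB1 region had no such peak in any library. Between treated cells the count in resistant cells only went from 9 of 14 to 6 of 9, 6 of 9 and 10 of 18. Over all such regions the shares were 70.2%, 38.7% and 49.8%. Without 1 library it was 9 to 16, against 32.4% to 56.9%. Without treated resistant replicate 2 it was 16 of 24, against 47.5%. The count in parental cells only was 0 to 2, against 4.8% to 18.9% of all such regions. These are counts under each alternative, and the regions counted were not always the same. With -log10 q of at least 3, the ABCB4 region alone was left of the 9 regions of the main setting. Fewer libraries admit more regions to these counts by construction. For the other changes the cause was not tested. The lists give no depth, so absence of a weak peak means only that none was called.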

Other observations

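The gene table also lists 22 genes with ABC names that do not code for protein, pseudogenes and long noncoding RNAs. Of these, 3 had a peak within 1 kb of an end in 12 of 12 libraries, ABCA11P on chromosome 4, ABCA15P on chromosome 16 and ABCA17P on chromosome 16, 14 had none there in any library, and 15 had none in the span. ABCA17P begins at chr16:2340922, within the region that covers the ABCA3 start site (chr16:2339626-2341191), so peaks of the pair cannot be assigned to 1 of them. The lists of peaks gave ABCC6P1 and ABCC6P2 in 0 libraries, as the start site of ABCC6. ABCC13 was called in 3 libraries.

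ABCA13, the longest span of the family, held the most regions, 35, and none of them was called in 12 of 12 libraries. Its most frequent region was called in 10. By contrast ABCD2 and ABCG5 had 1 region each, called in 4 and 1 libraries.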
